A study of Homo sapiens with 8 samples.

Results

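Genes of cholesterol and fatty acid synthesis were followed in 2 human multiple myeloma cell lines exposed to melphalan, to inhibitors of miR-221 and miR-222, to both or to neither. The 31 genes listed cover the mevalonate pathway, the sterol pathway, the regulators of both, a sterol carrier and the enzymes of fatty acid synthesis and desaturation. A gene was measured where a transcript cluster of the array carried its symbol and no other, and the brightest cluster was taken where there were several. This gave 29 of the 31 genes, among 18417 genes with such a cluster. The cluster of HSD17B7, a sterol reductase, is shared with a pseudogene and was not used, and FDFT1, squalene synthase, had no cluster of its own in the annotation used here. CYP51A1 was the only member with more than 1 cluster.

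U266/s is an established myeloma line described as parental, and U266/LR7 is its melphalan-resistant derivative. Melphalan, a DNA-alkylating drug, was given at 100 µM, the inhibitors at 100 nM, and RNA was taken after 12 h. Each line has 1 array with melphalan and inhibitors, 1 with melphalan alone, 1 with inhibitors alone and 1 control array transfected with a negative control oligonucleotide, so no condition was replicated and the 8 arrays limit the precision. The 2 arrays with melphalan alone are tagged as not transfected, although the growth text can be read as giving them the negative control. The melphalan pairs without inhibitors therefore may also differ in transfection, and the pairs with inhibitors do not.

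Cells build cholesterol from acetyl-CoA through mevalonate, isoprenoid diphosphates, squalene and lanosterol, and they build fatty acids from the same precursor. The transcription factors encoded by SREBF1 and SREBF2 switch on most of these genes. Their precursors sit in the endoplasmic reticulum with the escort protein SCAP, and INSIG1 holds that complex there when sterols are plentiful. Plasma cells and myeloma cells, which secrete large amounts of antibody, need membrane lipid for an extended endoplasmic reticulum, and the mevalonate enzyme FDPS is the target of the bisphosphonates used against myeloma bone disease.

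All values are log2 signals, and a difference of 1 log2 unit is a 2-fold difference in signal. Differences come with the standard error (SE) of a limma model fitted to all 18417 genes, with terms for line, melphalan, their interaction and inhibitors. Arrays with and without inhibitors stand in for replicates in it, although by the tags the melphalan pairs of them differ in transfection as well, and 3 residual degrees of freedom remained, and a gene is called where its Benjamini-Hochberg adjusted p is below 0.05. The labels do not tell whether the RNA came from separately grown cells. The p-values hence reflect the spread of these 8 arrays alone, part of which may be technical. In bulk RNA, fewer cells of a kind and less RNA per cell cannot be told apart. Of 8 plasma cell markers, IRF4, XBP1 and PRDM1 read between 10.60 and 12.59 on every array. SDC1 read 9.26 to 11.33 and TNFRSF17 9.92 to 11.97. CD38 read 6.48 to 8.39, MZB1 6.94 to 9.71 and SLAMF7 6.18 to 10.54. The lines differed in several of the 8. Without melphalan 4 markers were higher and 2 lower in U266/LR7, from 1.94 for SLAMF7 to -2.43 for MZB1, with SDC1 at 1.60. Melphalan lowered 2 of the 8 in U266/LR7, and lowered 5 and raised 1 in U266/s. There PRDM1 read 10.67 and 10.60 with melphalan, against 11.79 and 11.76, and XBP1 11.42 and 11.19, against 12.06 and 11.90. Of the markers of other cells, MS4A1 of B cells stayed at 4.20 to 4.89, but some moved with melphalan. The myeloid gene CD14 rose by 0.55 ± 0.14 in U266/LR7 and 1.47 ± 0.14 in U266/s, where it read 7.77 and 7.94, against 6.26 and 6.50. No other of the 4 myeloid markers was called with melphalan in either line. The CD14 call in U266/LR7 was lost with quantile and with cyclic loess normalization. The epithelial gene EPCAM fell by 1.77 ± 0.20 in U266/s and was lower in U266/LR7 without melphalan (-2.49 ± 0.20). No other of the 5 stromal and epithelial markers was called with melphalan in U266/s, where their median was 0.291. KRT18, also epithelial, read 8.60 and 8.82 there, against 8.34 and 8.50. Between the lines without melphalan 1 of the 5 was higher and only EPCAM lower. EPCAM read 5.46 and 5.36 in U266/LR7 without melphalan, below the lower quartiles of 5.82 and 5.81, so the floor limits that size. The part of these differences in the results was not tested. The interquartile range of the U266/s melphalan arrays was narrower, at 3.25 and 3.34, against 3.58 to 3.71 on the other arrays. Genes brighter than the median signal had a median melphalan change of 0.072 in U266/LR7 and -0.174 in U266/s, and the part of the narrower range in the falls described next was not tested.

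Melphalan left most of these genes uncalled in U266/LR7 and moved most of them in U266/s. In U266/LR7 it lowered 1 of the 29 members and raised 2, whereas in U266/s it lowered 13 and raised 6. Over all genes tested, 3.61% were called lower and 3.02% higher in U266/LR7, and 24.9% and 18.4% in U266/s. Among the 9208 genes brighter than the median signal, 39% were lower and 18.6% higher in U266/s, against 44.4% and 18.5% of the 27 members in that range. The share of members that moved in U266/s was thus near the share of other bright genes, and the values that follow show which members went which way.

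The sterol enzymes held 5 of the 13 falls in U266/s. SQLE encodes squalene epoxidase, which makes the first oxygenated intermediate of the sterol pathway and is one of its slow steps. In U266/LR7 it read 10.83 with melphalan and 10.88 with melphalan and inhibitors, against 10.41 in the control and 10.85 with inhibitors alone. In U266/s the 4 values were 9.62 and 9.42, against 10.62 and 10.55. The U266/s arrays with melphalan lay below all 6 other arrays, with a fall of 1.06 ± 0.16 log2 units (limma adjusted p = 0.000284).

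SC5D, a desaturase of a late sterol intermediate, had the deepest fall of the sterol enzymes. It read 9.0 and 9.19 in U266/LR7 with melphalan, against 8.79 and 8.99 without, and 7.55 and 7.80 on the U266/s melphalan arrays, against 8.90 and 8.78 without melphalan. Its change in U266/s was -1.17 ± 0.15 (limma adjusted p = 0.000101). Again only the parental arrays with melphalan stood apart. NSDHL, a sterol dehydrogenase that takes part in removing methyl groups from lanosterol-derived sterols, read 9.69 and 9.83 in U266/LR7 with melphalan, against 9.43 and 9.49 without, a difference of 0.30 ± 0.13 that was not called. In U266/s it read 9.29 and 9.41, against 10.11 and 10.21, and the change of -0.81 ± 0.13 was called.

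CYP51A1, the lanosterol demethylase, and MSMO1, a methylsterol oxidase, were called lower as well, at -0.46 ± 0.15 and -0.58 ± 0.15. The second cluster of CYP51A1 read 8.88 and 9.49 on the U266/s melphalan arrays, against 9.36 and 9.22, so its 2 clusters disagree, and the call was lost with their mean. Not every sterol enzyme followed. TM7SF2, a sterol reductase, rose by 0.60 ± 0.15 in U266/s, with 8.88 and 8.75 under melphalan, against 8.17 and 8.26. LSS, which closes the sterol rings, EBP, a sterol isomerase, and DHCR7, the reductase of the last step, were not called there, at 0.33, -0.08 and -0.14. In U266/LR7 only DHCR7 of the 9 measured sterol enzymes was called, at 0.56 ± 0.13, a call lost in 7 of 17 alternative settings (adjusted p up to 0.252), and the median was 0.225, against 0.049 for all genes. In U266/s 5 of the 9 fell and 1 rose, with a median of -0.463, against 0.075 for all genes. All 9 are brighter than the median signal, and of such genes 39% fell and 18.6% rose in U266/s. The median change of such genes was 0.072 in U266/LR7 and -0.174 in U266/s.

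**Figure D1:**
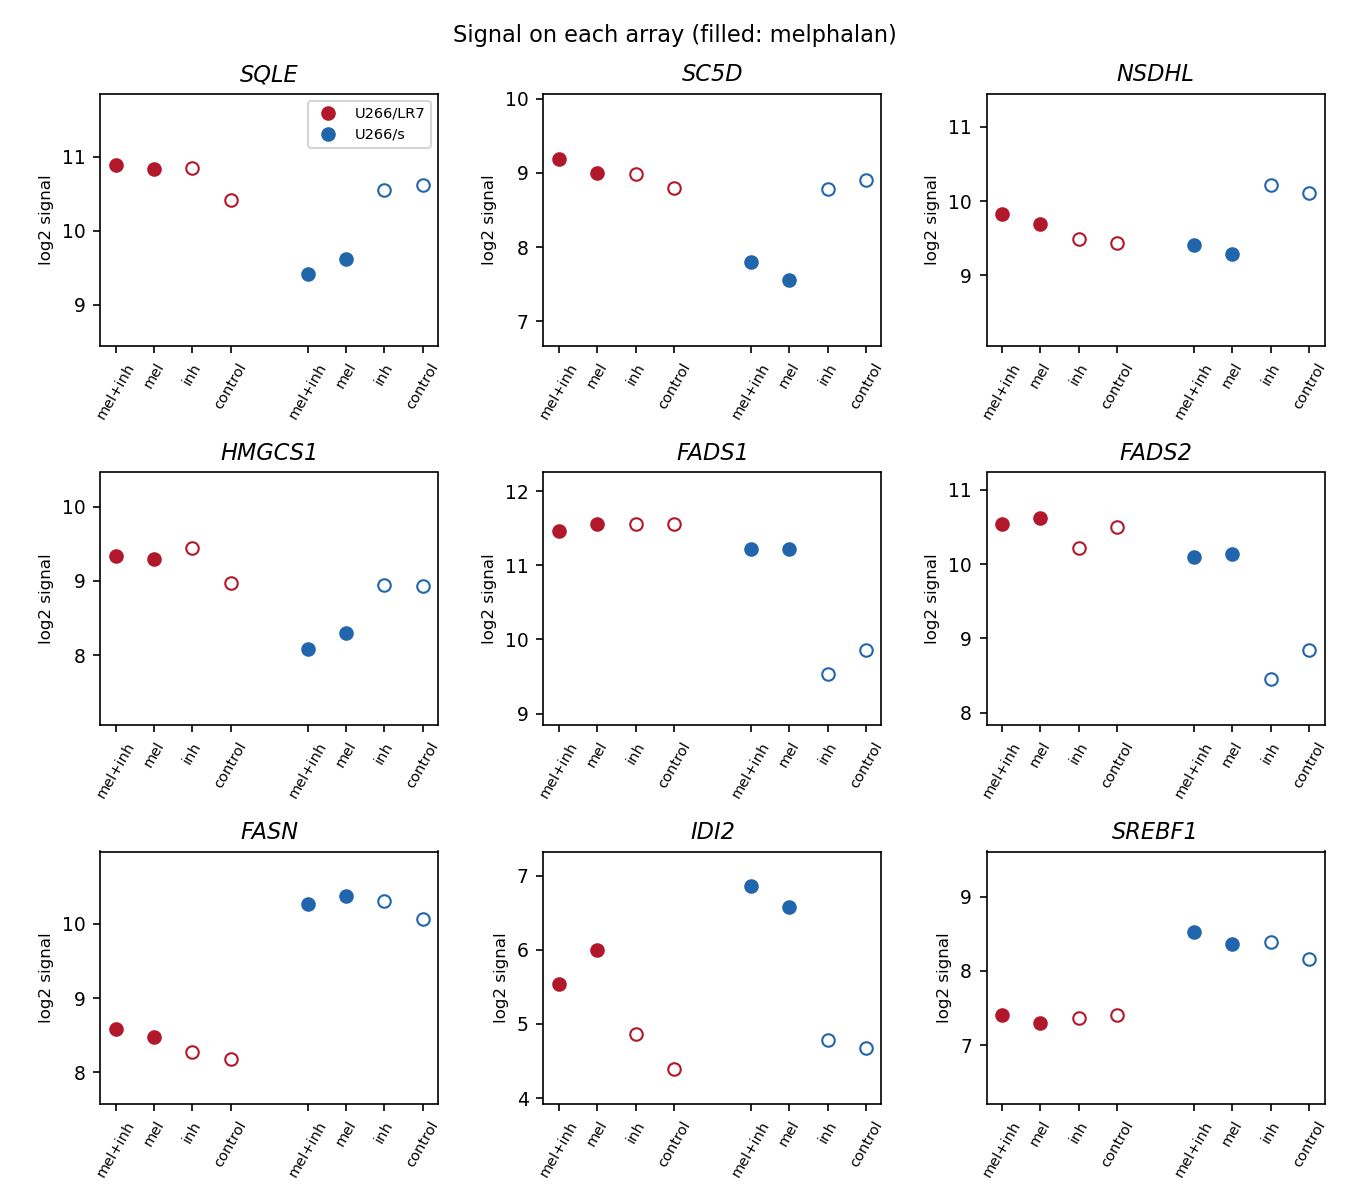
Log2 signal of 9 members on each of the 8 arrays, U266/LR7 in red and U266/s in blue, with melphalan arrays filled, inhibitors marked inh and melphalan marked mel. The vertical axes span the same range of log2 units in each panel but are centred on each gene. SQLE, SC5D and HMGCS1 are lowest on the 2 melphalan arrays of U266/s, where FADS1 and FADS2 rise, while FASN and SREBF1 separate the lines on every array.

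The mevalonate enzymes split. HMGCS1, HMG-CoA synthase, read 8.29 and 8.08 in U266/s with melphalan, against 8.93 and 8.94 without, a fall of 0.75 ± 0.17. MVK, mevalonate kinase, read 6.90 and 7.04, against 7.59 and 7.58, a fall of 0.61 ± 0.14, and IDI1, the isopentenyl diphosphate isomerase, fell by 0.47 ± 0.16. The next enzymes after mevalonate kinase moved the other way. PMVK, phosphomevalonate kinase, read 9.40 and 9.37 with melphalan in U266/s, against 8.69 and 8.67, a rise of 0.70 ± 0.14. MVD, the decarboxylase that follows it, read 9.47 and 9.46, against 8.52 and 8.81, a rise of 0.80 ± 0.15. Enzymes of consecutive steps thus went opposite ways on the same arrays. ACAT2, the cytosolic thiolase that opens the pathway, and FDPS were not called with melphalan in either line. FDPS has processed pseudogenes in the genome, so its signal is less certain to be its own.

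IDI2, a second isomerase gene next to IDI1 on chromosome 10 that is known mainly from skeletal muscle, had the largest rise of all members. It read 6.0 and 5.54 in U266/LR7 with melphalan, against 4.39 and 4.86, and 6.58 and 6.86 in U266/s with melphalan, against 4.67 and 4.79. The arrays with melphalan and those without did not overlap in either line, and the rises were 1.15 ± 0.19 in U266/LR7 and 1.98 ± 0.19 in U266/s (limma adjusted p = 0.00552 and 1.66e-05). All arrays without melphalan read below the lower quartile of the genes, 5.81 to 5.98 on these arrays, and the U266/LR7 arrays with melphalan lay at 5.54 and 6.0, around their quartiles of 5.86 and 5.85. The floor of the signal limits the size of both rises, and the U266/LR7 rise lies almost wholly at or below those quartiles. Without the U266/LR7 array with melphalan alone the rise in U266/LR7 was not called (adjusted p = 0.0832, the highest over its alternatives).

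Of the regulators, INSIG1 and the sterol carrier gene STARD4 fell in U266/s, whereas SREBF1, SREBF2 and SCAP were not called in either line. INSIG1 read 10.24 and 9.93 under melphalan, against 10.47 and 11.01, and its fall of 0.65 ± 0.20 came mostly from the pair with inhibitors, at -1.08, against -0.23 in the pair without. STARD4 had the same unevenness, at -1.19 with inhibitors and -0.44 without, and a fall of 0.81 ± 0.18. SREBF2, which drives mainly the cholesterol genes, stood at 0.41 ± 0.15 in U266/LR7 and 0.28 ± 0.15 in U266/s.

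Among the fatty acid enzymes, FADS1 and FADS2 rose in U266/s while ELOVL6, ACACA and ACLY fell. FADS1 and FADS2, neighbours on chromosome 11, encode the desaturases that make long polyunsaturated fatty acids. FADS1 read 11.22 on both melphalan arrays of U266/s, against 9.86 and 9.54 without melphalan, a rise of 1.52 ± 0.13 (limma adjusted p = 7.53e-06). FADS2 read 10.13 and 10.09, against 8.84 and 8.45, a rise of 1.46 ± 0.14 (limma adjusted p = 1.65e-05). These rises took both genes close to their level in U266/LR7, where FADS1 read 11.56 and 11.46 with melphalan, against 11.55 and 11.56 without. FADS3, the third gene of the cluster and no member here, was not called with melphalan in U266/s (-0.16 ± 0.21).

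ELOVL6, the elongase that lengthens palmitate, fell in U266/s by 1.74 ± 0.27, with 7.45 and 7.91, against 9.83 and 9.01. The pair without inhibitors gave -2.38 and the pair with inhibitors -1.10, the widest spread of the members. ACACA, acetyl-CoA carboxylase, was the only member called lower with melphalan in both lines. It read 7.23 and 7.20 in U266/LR7 with melphalan, against 8.36 and 8.44, and 8.03 and 7.71 in U266/s, against 8.69 and 8.63. Its falls were 1.19 ± 0.15 and 0.79 ± 0.15. ACLY, ATP citrate lyase, which supplies acetyl-CoA to both pathways, had a change of 0.06 in U266/LR7 and fell by 0.63 ± 0.13 in U266/s, and FASN and SCD, fatty acid synthase and stearoyl-CoA desaturase, were not called in either line.

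**Figure D2:**
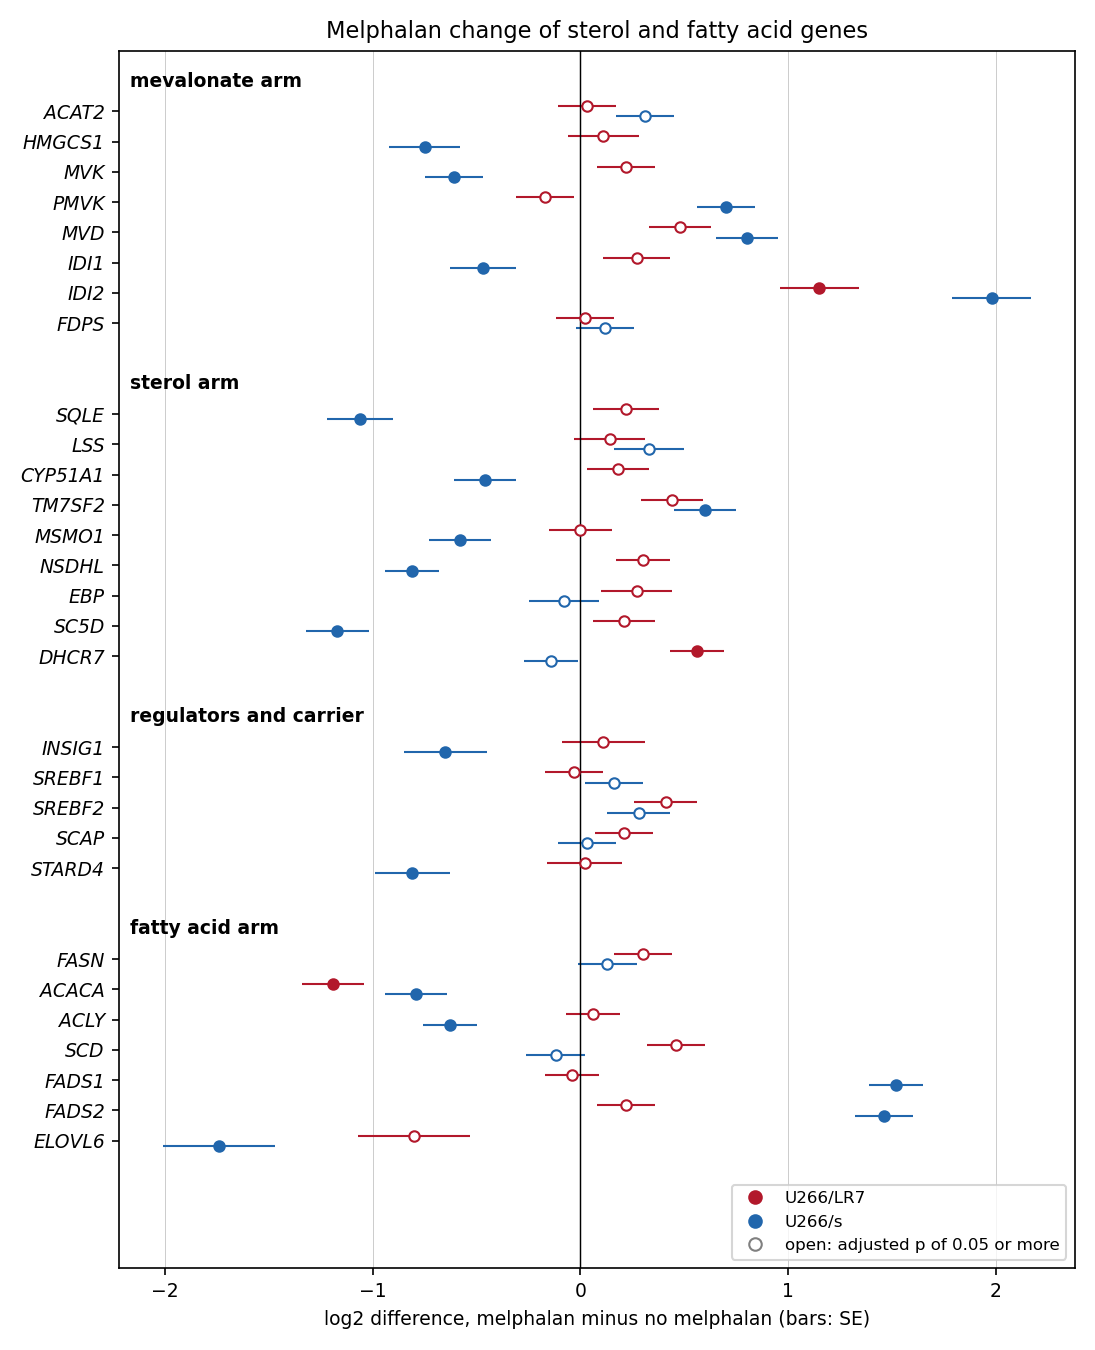
Log2 difference of the 29 members between arrays with and without melphalan, in U266/LR7 (red) and U266/s (blue), each 2 arrays against 2, with the SE as bars and open points where the limma adjusted p was 0.05 or more. Most blue points of the sterol enzymes lie left of 0 and the red ones at or right of it, IDI2 rises in both lines, and FADS1 and FADS2 are called higher in U266/s and not in U266/LR7.

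The calls with melphalan in U266/s held in every alternative processing tried for PMVK, MVD, IDI2, SQLE, NSDHL, SC5D, ACACA, ACLY, FADS1, FADS2 and ELOVL6. The other calls were lost in at least 1 setting, with adjusted p of up to 0.0566 for STARD4, 0.0659 for HMGCS1, 0.0693 for MVK, 0.0852 for TM7SF2, 0.135 for MSMO1, 0.314 for INSIG1, 0.43 for CYP51A1 and 0.461 for IDI1. With quantile or cyclic loess normalization, which remove the narrower range of the U266/s melphalan arrays, 10 and 9 members fell and 12 and 11 rose, so that the higher share of the calls was 54.5% and 55% in place of 31.6%. ACAT2, FDPS, LSS, SREBF2 and FASN joined the rises under both, and the median of the sterol enzymes was -0.168 and -0.154. Without the U266/s array with both agents 7 members fell, and without the U266/s control array 8 did.

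The difference of the responses was tested by the interaction of melphalan and line. It was called for 14 of 29 members, 10 positive and 4 negative, taken as the change in U266/LR7 minus that in U266/s. Over all genes 17.9% were positive and 5.99% negative, and among genes brighter than the median 28.5% and 7.14%, against 33.3% and 11.1% of the members there. The interaction was 1.29 ± 0.22 for SQLE (limma adjusted p = 0.00185), 1.38 ± 0.21 for SC5D (0.000984) and 1.11 ± 0.19 for NSDHL (0.00149). It was -1.56 ± 0.18 for FADS1 (0.000235) and -1.24 ± 0.20 for FADS2 (0.00125). These 5 calls held in every alternative tried. The other 9 did not, among them HMGCS1, IDI1, IDI2, CYP51A1, DHCR7 and ACLY, which lost the call with quantile and cyclic loess normalization. Under each of those normalizations 5 members were positive, and positive calls made up 50% and 55.6% in place of 71.4%. There were 3 positive calls without the U266/LR7 array with melphalan alone, 5 without its array with both agents, 5 without the U266/s control or inhibitor array, and 6 without the U266/s array with both agents.

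Without melphalan, the 3 members with the largest differences between the lines were fatty acid enzymes. FASN was lower and FADS1 and FADS2 were higher in U266/LR7, while most mevalonate and sterol enzymes were not called. In all, 4 of 29 members were higher and 9 lower in U266/LR7, against 16.9% and 17.8% of all genes. Among genes brighter than the median signal, 24.6% were higher and 22.7% lower, against 14.8% and 33.3% of the 27 members there. In U266/LR7 FASN read 8.18 in the control and 8.27 with inhibitors, against 10.07 and 10.31 in the same states of U266/s, a difference of -1.97 ± 0.14 (limma adjusted p = 1.03e-06). For SCD the signal was 10.12 and 10.00 in the resistant line, against 10.95 and 11.18 in the parental one, a difference of -1.01 ± 0.14. Both genes were lower in U266/LR7 on all 4 of its arrays than on any array of U266/s.

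The desaturase genes of the FADS cluster ran the other way. FADS1 was higher in U266/LR7 by 1.85 ± 0.13 (limma adjusted p = 6.46e-07) and FADS2 by 1.71 ± 0.14 (limma adjusted p = 2.88e-06), whereas their neighbour FADS3 was lower (-0.86 ± 0.21). For FADS2 the resistant line had values of 10.50 and 10.22, against 8.84 and 8.45 in the parental line. ACLY was lower in U266/LR7 (-0.46 ± 0.13), and ACACA and ELOVL6 were not called.

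Of the regulators, INSIG1, SREBF1 and SREBF2 were lower in the resistant line. INSIG1 read 8.98 and 9.60 in U266/LR7 without melphalan, against 10.47 and 11.01 in U266/s, a difference of -1.45 ± 0.20 (limma adjusted p = 0.000155). SREBF1, whose products drive fatty acid as well as cholesterol genes, read 7.40 and 7.37, against 8.16 and 8.39, a difference of -0.89 ± 0.14. SREBF2 was lower too (-0.57 ± 0.15). No gene of this group was higher, and SCAP and STARD4 were not called, at -0.26 and -0.16. On all 4 arrays of U266/LR7 SREBF1, SREBF2 and INSIG1 read below every array of U266/s.

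Of the 8 mevalonate genes, ACAT2 was higher in U266/LR7 by 0.99 ± 0.14 and FDPS lower (-0.51 ± 0.14). ACAT2 read 9.84 and 10.00, against 8.88 and 8.99. Of the 9 sterol genes, TM7SF2 was higher by 0.75 ± 0.15, and NSDHL (-0.70 ± 0.13) and DHCR7 (-0.47 ± 0.13) were lower. SQLE and SC5D, the members that parted the lines most under melphalan among sterol enzymes, had differences of 0.05 ± 0.16 and 0.05 ± 0.15 without it. The calls of FDPS, DHCR7 and ACLY were lost without the U266/LR7 inhibitor array, the U266/s control or the U266/s inhibitor array, with adjusted p of up to 0.134, 0.11 and 0.14. That of SREBF2 was lost without the control array of either line (up to 0.13), and the count of lower members was 5 without the U266/s control array.

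With melphalan, 11 of 29 members were higher and 10 lower in U266/LR7, against 27.7% and 24% of all genes. Among genes brighter than the median signal, 45.2% were higher and 20.3% lower, against 37% and 33.3% of the 27 members there. The comparison of the lines with melphalan shares its arrays with the melphalan responses above. It equals the difference without melphalan plus the interaction, so it is not separate evidence. SC5D (1.43 ± 0.15), SQLE (1.33 ± 0.16), HMGCS1 (1.13 ± 0.17) and MVK (1.10 ± 0.14) were the largest higher members. FASN (-1.79 ± 0.14), SREBF1 (-1.08 ± 0.14), PMVK (-1.03 ± 0.14) and IDI2 (-0.94 ± 0.19) were the largest lower ones. The gap in FADS1 was 0.29 ± 0.13 and no longer called, and that in FADS2 was 0.48 ± 0.14. Of the 21 calls, 9 held in every alternative tried, those of HMGCS1, MVK, PMVK, IDI1, IDI2, SQLE, SC5D, SREBF1 and FASN. The other 12 were lost in at least 1. Among those, FADS2 ranged from 0.09 to 0.58 over the alternatives, and INSIG1 (-0.69 ± 0.20) from -1.08 to -0.29. With quantile and cyclic loess normalization 7 and 6 members were higher and 12 were lower under each, so that the higher share of calls was 36.8% and 33.3% in place of 52.4%. Without the U266/LR7 array with melphalan alone 6 were higher and 4 lower, without its array with both agents 7 were higher, and without the U266/s array with melphalan alone 5 were lower.

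**Figure D3:**
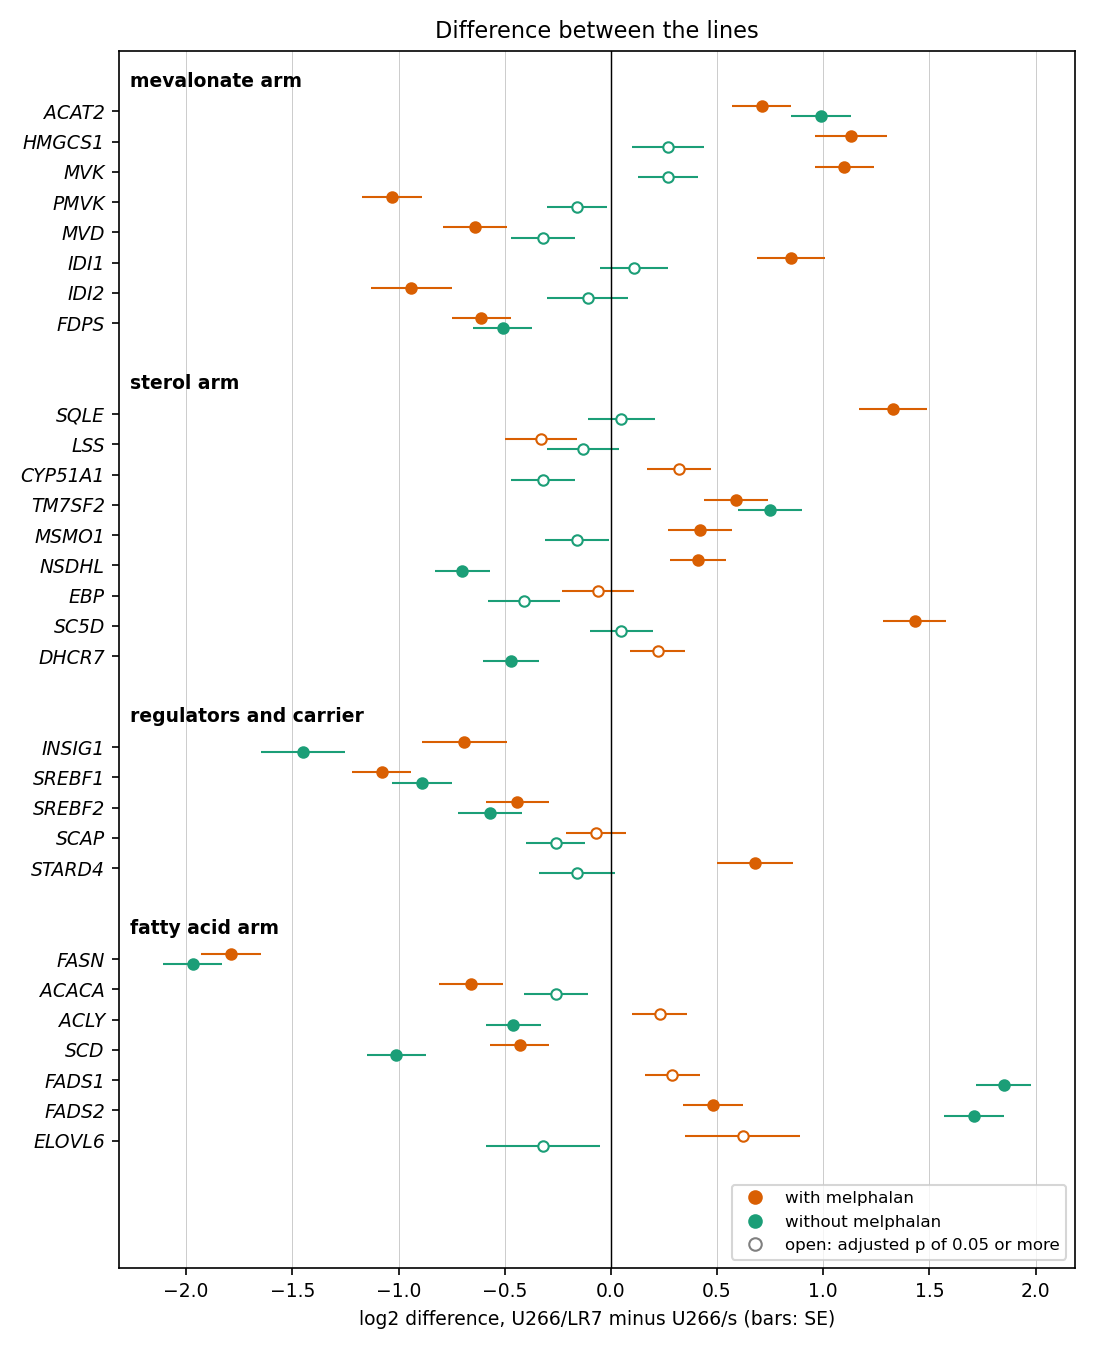
Log2 difference of the 29 members between U266/LR7 and U266/s, with melphalan (orange) and without (green), each 2 arrays against 2, with the SE as bars and open points where the limma adjusted p was 0.05 or more. FASN, SREBF1 and INSIG1 are lower in U266/LR7 in both states, whereas HMGCS1, MVK, SQLE and SC5D are called higher with melphalan and not without it. The INSIG1 call with melphalan was lost in 3 of 17 alternative settings.

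Across all treatments, 5 members were higher on every U266/LR7 array than on any U266/s array, and 7 were lower. The higher ones were ACAT2, HMGCS1, MVK, FADS1 and FADS2, and the lower ones PMVK, FDPS, INSIG1, SREBF1, SREBF2, FASN and SCD. Some were barely parted. The lowest U266/LR7 value of HMGCS1 was 8.97, against 8.94 as the highest in U266/s. The highest U266/LR7 values of SREBF2 and PMVK were 9.89 and 8.56, against 9.96 and 8.67 as the lowest in U266/s. HMGCS1, MVK and PMVK were not called between the lines without melphalan. Of all genes, 15.9% were higher and 15.2% lower on every U266/LR7 array than on any U266/s array. The 5 of 29 members that were higher lay near that share, and the 7 that were lower somewhat above it, a gap that was not tested. FASN had the widest gap, with 8.18 to 8.58 in U266/LR7 and 10.07 to 10.37 in U266/s.

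The inhibitors of miR-221 and miR-222 gave no called change in these genes. Over 4 arrays with inhibitors and 4 without, limma called 0 of 29 members in either direction, against 0.0271% of all genes higher and 0.0163% lower. At an unadjusted p below 0.05 there were 2 members, against 6.3% of all genes, namely MSMO1 at 0.35 ± 0.10 (unadjusted p = 0.00629, limma adjusted p = 0.551) and DHCR7 at 0.21 ± 0.09. Differences over the members ranged from -0.20 (LSS) to 0.35.

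Within U266/LR7 without melphalan the inhibitor array read above the control array for several sterol and mevalonate genes and for INSIG1. MSMO1 read 11.92 with inhibitors, against 11.18 in the control, INSIG1 9.60 against 8.98, and IDI1 10.40 against 9.89. HMGCS1, CYP51A1 and SQLE differed by 0.48, 0.47 and 0.43 in this pair. In it 8 of 9 sterol genes were positive, against 49.1% of all genes, with a median of 0.207, against -0.005. In U266/s without melphalan 6 of 9 were positive, against 53.1% of all genes, with a median of 0.103, against 0.017. The inhibitor pairs with melphalan had 7 of 9 positive in U266/LR7 (47.3% of all genes) and 6 of 9 in U266/s (52.2%). Their medians were 0.094 and 0.118, against -0.009 and 0.013 for all genes. In U266/LR7 HMGCS1, CYP51A1 and SQLE differed by 0.05, -0.04 and 0.05 there, and MSMO1, INSIG1 and IDI1 by 0.34, 0.26 and 0.23. In U266/s with melphalan the same genes, in that order, differed by -0.21, 0.22, -0.20, 0.15, -0.32 and -0.13. These are differences between 1 array and 1 array and have no test. The same U266/LR7 control array is the lower end of the melphalan pair without inhibitors. In that pair 9 of 9 sterol genes were positive (median 0.291), against 6 of 9 in the pair with inhibitors (median 0.199). Of all genes, 56.8% were positive in the pair without inhibitors (median 0.045) and 60.6% in the pair with inhibitors (median 0.063).

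The promoters of the members were read for binding motifs of factors known to act on sterol genes. RefSeq windows from 250 bases before to 50 bases after a gene start (GRCh38.p14) were at hand for 27 of the 31 genes, in 36 windows. The SREBP motif TCACNCCAC, searched on both strands, was in 1 member window, that of SREBF2, and in 1.13% of all 35116 windows. The box CCAAT, bound by NF-Y, which works together with SREBP at sterol promoters, was in 24 of 36 member windows (66.7%) on either strand, against 34.6% of all windows, and the GC box GGGCGG, bound by Sp1, in 86.1% against 45%. The E-box CANNTG was in 55.6% against 68.7%. Overlapping matches were counted separately. The shares count windows, and 7 members had more than 1 window. By gene, 20 of 27 members held a CCAAT box, 25 a GC box and 19 an E-box. The windows of all genes were not matched to the members by expression or base content, so the gaps in share were not tested for these.

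Printed here are the windows of MVK and NSDHL, which hold the most CCAAT boxes and fell with melphalan in U266/s, of SREBF2, the only one with the SREBP motif, and of IDI2, which rose in both lines and holds none of these 2 motifs. They were chosen after the matches were seen. Capitals mark CCAAT in either orientation and, in SREBF2, also the SREBP motif.
MVK promoter, chr12:109573544-109573843, plus strand: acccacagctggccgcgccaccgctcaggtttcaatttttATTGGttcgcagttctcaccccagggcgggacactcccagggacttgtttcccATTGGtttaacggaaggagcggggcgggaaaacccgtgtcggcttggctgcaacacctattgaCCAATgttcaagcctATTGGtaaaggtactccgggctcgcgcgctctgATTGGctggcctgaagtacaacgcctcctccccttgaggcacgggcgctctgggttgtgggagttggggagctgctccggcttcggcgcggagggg
NSDHL promoter, chrX:152830813-152831112, plus strand: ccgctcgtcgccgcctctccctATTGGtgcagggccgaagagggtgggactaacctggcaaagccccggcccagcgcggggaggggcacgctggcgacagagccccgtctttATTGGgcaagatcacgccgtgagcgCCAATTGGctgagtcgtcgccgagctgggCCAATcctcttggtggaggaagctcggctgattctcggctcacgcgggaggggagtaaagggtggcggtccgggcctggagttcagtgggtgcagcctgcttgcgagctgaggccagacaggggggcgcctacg
SREBF2 promoter, chr22:41832855-41833154, plus strand: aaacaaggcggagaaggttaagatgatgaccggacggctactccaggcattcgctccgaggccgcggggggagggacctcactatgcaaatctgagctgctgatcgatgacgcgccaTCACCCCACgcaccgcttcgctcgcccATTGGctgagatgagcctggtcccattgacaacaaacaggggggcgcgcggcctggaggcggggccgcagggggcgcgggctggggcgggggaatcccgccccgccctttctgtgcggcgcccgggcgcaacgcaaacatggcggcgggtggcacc
IDI2 promoter, chr10:1025810-1026109, minus strand: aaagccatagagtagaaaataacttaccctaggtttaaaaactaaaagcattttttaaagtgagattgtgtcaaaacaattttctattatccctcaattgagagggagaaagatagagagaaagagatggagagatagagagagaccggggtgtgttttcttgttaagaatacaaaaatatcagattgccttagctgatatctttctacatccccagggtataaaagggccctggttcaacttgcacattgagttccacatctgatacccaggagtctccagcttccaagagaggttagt

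The MVK and NSDHL windows hold 5 CCAAT boxes each, 2 of those in NSDHL overlapping each other, and that of SREBF2 holds 1. Of the members that fell with melphalan in U266/s and have a window, 10 of 12 hold a CCAAT box in at least 1 window, as do 3 of the 6 that rose and 6 of the 8 that were not called. A match is a run of letters and shows no binding, and a window without one says nothing of the factor.

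Other genes of lipid metabolism were counted beside the members, and their counts in U266/s are to be read against the 24.9% of all genes and 39% of bright genes called lower there, and the 18.4% and 18.6% called higher. Of 11 measured genes that use isoprenoid diphosphates, 1 fell with melphalan in U266/LR7, and 6 (54.5%) fell and 1 rose in U266/s, led there by PGGT1B, a subunit of geranylgeranyl transferase (-1.25 ± 0.18), and COQ2, of coenzyme Q synthesis (-0.99 ± 0.18). Of 9 genes of sterol sensing and SREBP processing 1 rose in U266/LR7, and 4 (44.4%) fell and 2 rose in U266/s. ERLIN1, which takes part in the breakdown of sterol-regulated proteins at the endoplasmic reticulum, fell by 1.92 ± 0.16 in U266/s. SPRING1, needed for SREBP activation, rose by 1.06 ± 0.15. Without melphalan SPRING1 was higher in U266/LR7 than in U266/s by 1.39 ± 0.15 and INSIG2, the relative of INSIG1, by 0.93 ± 0.14, the reverse of INSIG1.

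Of 11 other SREBP targets 1 fell in U266/LR7, and 4 (36.4%) fell and 2 rose in U266/s. ME1, malic enzyme, which supplies NADPH, fell by 2.13 ± 0.21 in U266/s and was lower in U266/LR7 without melphalan (-1.83 ± 0.21). GPAM, of triglyceride synthesis, fell by 0.87 ± 0.21, and ACSS2, acetyl-CoA synthetase, was higher in U266/LR7 without melphalan by 1.17 ± 0.15. Of 20 other genes of fatty acid synthesis and activation 1 rose in U266/LR7, while 10 (50%) fell and none rose in U266/s. The acyl-CoA synthetase genes ACSL5 and ACSL4 led in U266/s, at -2.31 ± 0.24 and -2.00 ± 0.16. ACSL5 read 6.37 and 5.93 in U266/LR7 without melphalan, against 10.51 and 10.55 in U266/s, a difference of -4.38 ± 0.24, and ELOVL2, an elongase of polyunsaturated fatty acids, was lower (-2.80 ± 0.17). ELOVL2 read 4.39 and 4.41 in U266/LR7, below the lower quartile of the genes, against 7.37 and 7.04 in U266/s, so the floor limits that size. The ACSL5 values in U266/LR7 lay not far above that quartile, 5.82 and 5.81 on these arrays, so the floor may limit its size as well.

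Of 16 sterol transport and storage genes 0 were called in U266/LR7, and 6 (37.5%) fell and 2 rose in U266/s, a share of falls near that of bright genes. There NCEH1, a cholesteryl ester hydrolase, fell by 1.48 ± 0.14 and NPC2, a lysosomal sterol carrier, rose by 0.99 ± 0.14. Without melphalan NPC2 was higher in U266/LR7 by 1.65 ± 0.14, and SCARB1, the receptor for high-density lipoprotein, was lower (-2.57 ± 0.17), with 7.66 and 7.52, against 10.09 and 10.23. Of 7 genes of LXR and sterol efflux 1 fell in U266/LR7 and 3 (42.9%) in U266/s, with LPCAT3, a phospholipid acyltransferase, at -1.03 ± 0.15 in U266/s. The cholesterol exporter gene ABCA1 fell in both lines, by 1.27 ± 0.22 in U266/LR7 and 0.84 ± 0.22 in U266/s. In this list RXRA, the partner receptor of LXR, and MYLIP, an LXR target that degrades lipoprotein receptors, were lower in U266/LR7 without melphalan, at -2.65 ± 0.16 and -0.80 ± 0.17.

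Of 21 fatty acid oxidation genes 1 fell in U266/LR7, and 6 (28.6%) fell and 4 rose in U266/s. There PPARGC1A, a coactivator of mitochondrial genes, fell by 1.85 ± 0.14 and DECR1, of unsaturated fatty acid breakdown, by 1.52 ± 0.15. Without melphalan SLC25A20, the carnitine carrier, and HADH, a dehydrogenase of the pathway, were lower in U266/LR7, at -1.11 ± 0.21 and -0.92 ± 0.14, and in the isoprenoid list so were PDSS1 and COQ2, both of coenzyme Q synthesis, at -1.38 ± 0.13 and -1.31 ± 0.18. Medians of these 7 lists in U266/s ran from -0.65 (isoprenoid use) to -0.061 (LXR and sterol efflux), against 0.075 for all genes and -0.174 for genes brighter than the median. With quantile and cyclic loess normalization the LXR and sterol efflux median was 0.232 and 0.065, and the other medians stayed negative. Sterol transport and storage then had 2 falls and 4 rises under both.

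**Figure D4:**
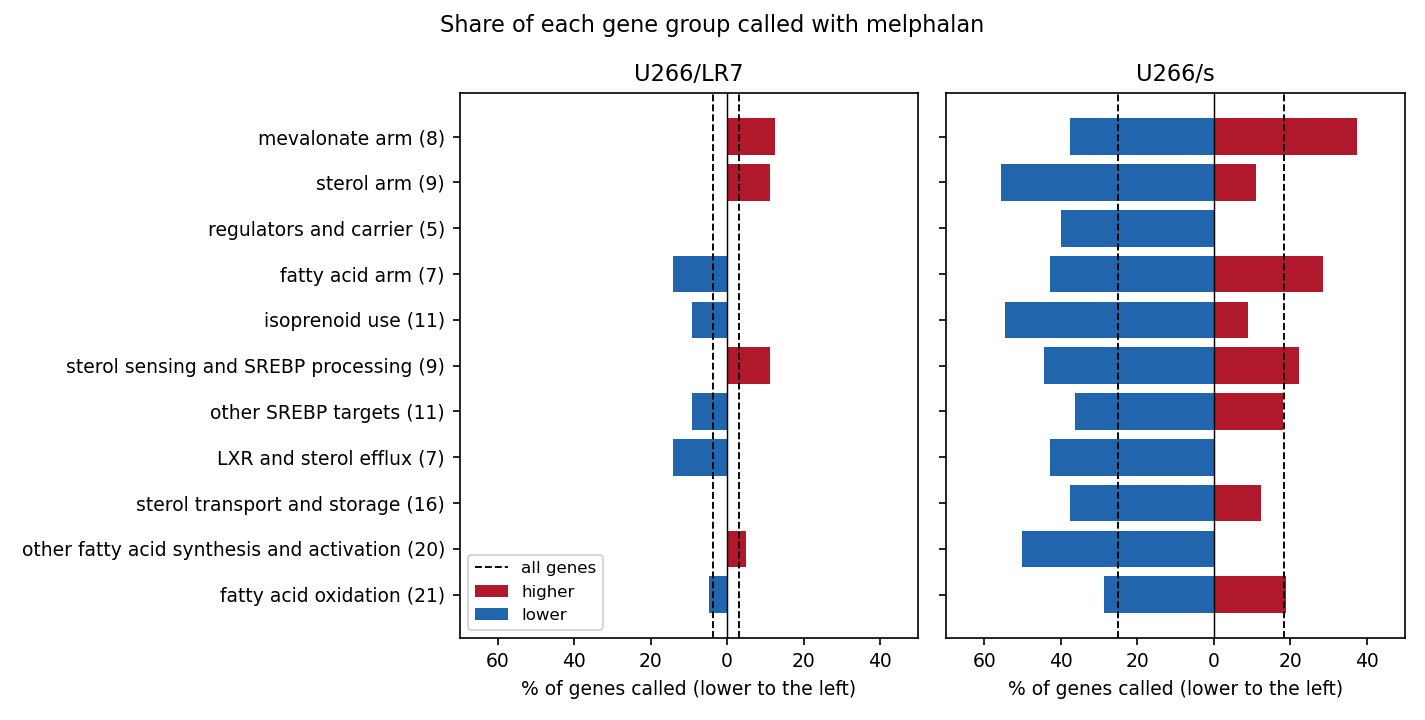
Percent of the measured genes of each group (number in brackets) called higher (red, to the right) or lower (blue, to the left) with melphalan in U266/LR7 and in U266/s, with dashed lines at the percentages over all genes. In U266/s, with the values as deposited, falls outnumber rises in every group but the mevalonate arm, where 3 of 8 members went each way. With quantile and cyclic loess normalization they do so under both in the sterol arm, isoprenoid use, sterol sensing, other fatty acid genes and fatty acid oxidation, and not in the rest under at least 1. Few genes of any group were called in U266/LR7.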

How the data were processed

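RNA of the 2 lines under 4 treatments was hybridised to 8 Affymetrix arrays, 1 per condition. The deposited log2 values were made with Affymetrix Expression Console and RMA, per the submitters' processing notes. The software version is not stated in the labels. The deposited table held 33297 transcript clusters, of which 19460 carry 1 gene symbol, 1754 several and 12083 none in the platform annotation, and 19429 matched a gene ID of RefSeq GRCh38.p14. For 769 genes with more than 1 cluster, that with the highest mean was kept. RMA pulls low signals together, so differences of dim genes are understated.

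The log2 values of 18417 genes were fitted with limma 3.58.1 in R 4.3.3 (empirical Bayes with an intensity trend) and p-values were adjusted by Benjamini-Hochberg, with calls at 0.05. The fit was tested on simulated data. The model holds no interaction of inhibitors, so arrays with and without them act as replicates. Alternatives were median centring, quantile and cyclic loess normalization, a filter on signal, no trend, robust variances, the mean of clusters, all two-way interactions, transfection as 3 levels, an additive fit for the inhibitors, and leaving out each array.

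The members and gene lists were chosen with earlier results of these data known. All members are described, and of each related list up to 2 called genes with the largest change, in U266/s with melphalan and between the lines without it. Promoters were to be those of called mevalonate and sterol genes with the SREBP motif, a rule that none met.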

Additional observations from a re-analysis of the deposited data

Results flagged for a closer look

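For 14 members the change with melphalan differed between the lines by the interaction test (limma adjusted p below 0.05), given here as the change in U266/LR7 minus that in U266/s. Among the mevalonate enzymes it was 0.86 for HMGCS1, with changes of 0.11 in U266/LR7 and -0.75 in U266/s. It was 0.83 for MVK (0.22 and -0.61) and 0.75 for IDI1 (0.27 and -0.47). PMVK had -0.87 (-0.17 and 0.70) and IDI2 -0.83 (1.15 and 1.98), so that IDI2 rose in both lines.

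Among the sterol enzymes the difference was 1.29 for SQLE (0.22 in U266/LR7 and -1.06 in U266/s), 1.38 for SC5D (0.21 and -1.17), 1.11 for NSDHL (0.30 and -0.81), 0.64 for CYP51A1 (0.18 and -0.46) and 0.70 for DHCR7 (0.56 and -0.14). STARD4 had 0.84 (0.02 and -0.81) and ACLY 0.69 (0.06 and -0.63). FADS1 had -1.56 (-0.04 and 1.52) and FADS2 -1.24 (0.22 and 1.46), the only fatty acid desaturase genes among the 14. SQLE, SC5D, NSDHL, FADS1 and FADS2 held the call in all alternatives tried, and the other 9 lost it in at least 1.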

How the results depend on the processing

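Of 70 calls on single members, 35 held in every alternative tried and none changed direction. With quantile and cyclic loess normalization, the members higher in U266/LR7 with melphalan were 7 and 6 in place of 11, the members raised by melphalan in U266/s 12 and 11 in place of 6, and the positive interactions 5 and 5 in place of 10. The members raised in U266/LR7 were 1 in place of 2 with all two-way interactions and 1 with transfection as 3 levels. Leaving out each array in turn gave 5 to 9 lower and 4 to 5 higher members between the lines without melphalan, and 4 to 11 lower and 6 to 13 higher with it. It gave 7 to 13 falls and 5 to 7 rises with melphalan in U266/s, 1 to 2 falls and 0 to 2 rises in U266/LR7, 3 to 13 positive and 3 to 4 negative interactions, and 0 calls for the inhibitors. An array left alone in its arm is then assumed to vary like the others. The cause of these shifts was not tested. No paired analysis was possible because each condition has 1 array and the labels number no replicates that could form a block, although the inhibitor term of the fit matches arrays by inhibitor state. Signals near the floor, as of IDI2 without melphalan, limit what can be read there, and IDI2 and STARD4 were not tested under the filter on signal.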
